A study of Oryza sativa with 4 samples.

Results

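The transcripts described here are the longest rice transcripts annotated as non-protein coding. They were chosen by 3 properties, an annotation that starts with that term, a reference sequence longer than 3000 bases and at least 100 reads summed over the 4 libraries. These criteria were met by 269 of the 44553 transcripts in the gene table, at 267 loci. Of the 2408 transcripts annotated as non-protein coding, 321 were longer than 3000 bases, of which 2 had no read and 50 had between 1 and 99 reads. Neither the direction nor the size of a change under drought entered the choice.

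The study asked how noncoding RNAs change in rice leaves when water is withheld. RNA was taken from leaves of wild type rice (Oryza sativa, ecotype Illmi), grown in soil pots in a greenhouse and 5 weeks old, in a well-watered control and after 1, 2 and 3 d of water deficit. The leaves of several plants from several pots were pooled for each library, and there was 1 library per condition, so no value has a replicate and no test between conditions was possible. The control leaves were collected first, so that day of sampling and drought cannot be told apart.

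Long noncoding RNAs (lncRNAs) are transcripts with no long open reading frame. Plant lncRNAs are transcribed between genes, inside introns, or across a gene on either strand, and an antisense lncRNA is complementary to the transcript of the gene on the other strand. Individual plant lncRNAs are known to act as decoys for microRNAs, as scaffolds for chromatin proteins and through the act of transcription itself, while most annotated ones have no known role. None of the 269 transcripts carried a gene ontology term in the table.

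The libraries held 56727328 (control), 52626188 (1 d), 60322263 (2 d) and 56909968 (3 d) reads mapped to the gene sequences. Levels are given as reads per 1000000 of these mapped reads (CPM), and a change as the log2 ratio of CPM to the control. A transcript counted as higher where this ratio reached 1 and as lower where it reached −1, a 2-fold difference. Intervals in brackets are exact 95% Clopper-Pearson intervals, which cover counting error only. Transcripts for chlorophyll a/b binding proteins and the Rubisco small subunit, 13 in all, which mark leaf mesophyll, summed to 8930, 9170, 1559 and 299.8 CPM in the control, 1 d, 2 d and 3 d libraries. The drought marker Dip1 was at 49.9, 91.4, 4236 and 4176 CPM. Transcripts named for glutelin, prolamin or oleosin, which mark seeds, summed to 226, 238, 213 and 177 CPM. Of these 60, 34 had reads in any library and 35 had none in the control. Pollen allergens summed to 9.70, 3.53, 39.8 and 64.1 CPM (8 of 13 with reads). Root-specific or root cap transcripts summed to 23.5, 28.1, 8.77 and 3.78 CPM (6 of 9 with reads). The part of these shifts in the changes below was not tested, and in pooled leaves fewer cells of a type and less RNA per cell cannot be told apart.

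The 269 transcripts were 3009 to 41297 bases long, with a median of 4369. There were 97 over 5000 bases, of which 21 were over 10000 bases. These are lengths of the gene sequences used for mapping, and the sources used here do not say whether introns are included. Each chromosome held between 10 (chromosome 8) and 43 (chromosome 1) of them. Total reads ranged from 101 to 79406, with a median of 1902, against 2310 for all 32803 transcripts with at least 100 reads. Per length, their level in the control library ran from 0.0128 to 73.7 CPM per kb with a median of 1.77 CPM per kb.

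At the edge of the length limit, Os02g0166200-01 (3009 bases), Os02g0261150-00 (3014 bases) and Os03g0395150-00 (3022 bases) were inside. The transcripts just outside were 2999 (Os02g0778666-00), 2996 and 2996 bases long. At the edge of the read limit, totals of 101, 107 and 109 reads were inside and totals of 96, 91 and 81 reads outside.

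**Figure D1:**
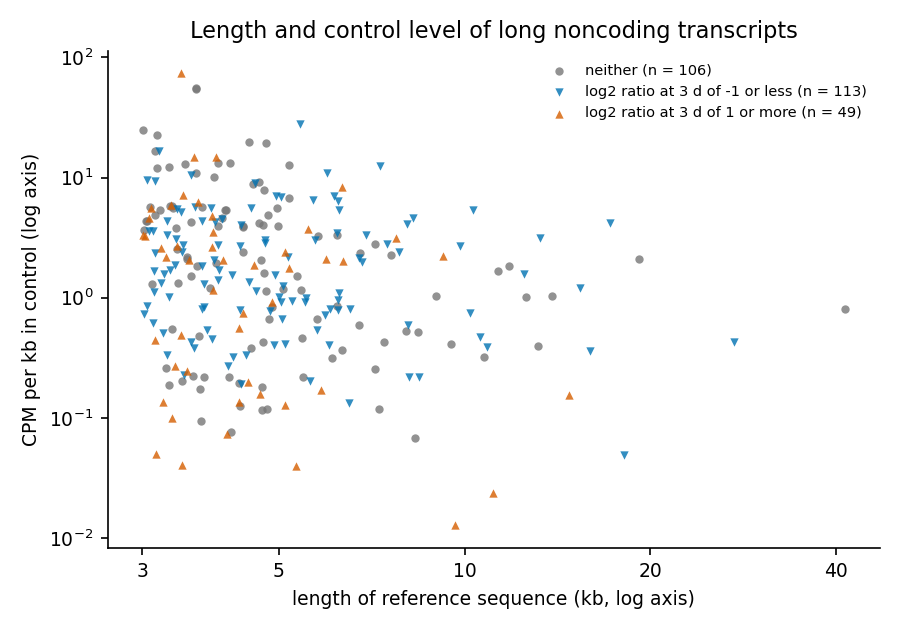
Length of the reference sequence (kb, log axis) against level in the control library (CPM per kb, log axis), with 1 point for each long noncoding transcript that had reads in the control and 3 d libraries. Triangles pointing up mark the 49 transcripts with a log2 ratio of 1 or more at 3 d, triangles pointing down the 113 with −1 or less, and circles the remaining 106. The levels run from 0.0128 to 73.7 CPM per kb.

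The highest level per length belonged to Os01g0654650-00, 3475 bases long, at 73.7 CPM per kb in the control. It had 14521 reads in the control, 11588 at 1 d, 15552 at 2 d and 37745 at 3 d, and stood near its control level until 2 d. Its log2 ratio was 0.01 at 2 d and 1.37 [1.35, 1.40] at 3 d. Next came Os01g0292250-00 at 55.7 CPM per kb, with 11584, 15988, 8990 and 6701 reads, highest at 1 d and lowest at 3 d. Os01g0147950-00, at 54.8 CPM per kb, had 11416, 9212, 6394 and 7423 reads. Its neighbour by locus number encodes a cytosolic triosephosphate isomerase, an enzyme of glycolysis, and was likewise lowest at 2 d, with 12674, 10288, 7400 and 8179 reads. Os07g0695200-00 (28.1 CPM per kb; 8623, 8221, 5116 and 2217 reads) was lower by 3 d, at a log2 ratio of −1.96 [−2.03, −1.90]. Os02g0166200-01 followed at 25.1 CPM per kb and was highest at 1 d in CPM (75.4, 109, 96.9 and 42.2 CPM). At 3 d the log2 ratio of Os01g0292250-00 was −0.79 with CPM, −0.074 with TMM and 0.066 with the median of ratios, that of Os01g0147950-00 was −0.63, 0.095 and 0.23, and that of Os02g0166200-01 was −0.84, −0.12 and 0.023. The 5 transcripts with the most reads held 19.1% of all reads in the 269.

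Transcripts past 2-fold against the control were few at 1 d and many at 2 d and 3 d. In the 1 d library the levels lay close to the control, and 222 of 269 were within 0.5 of it on the log2 scale (82.5%, against 81.9% of all transcripts with at least 100 reads). Higher at 1 d were 5 transcripts (1.86%; background 2.69% of all transcripts with at least 100 reads), and lower were 2 (0.74%; background 2.72%). The median log2 ratio was 0.04 at 1 d.

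The 2-d library differed widely from the control, with 48 transcripts higher (17.8%; background 18.7%) and 78 lower (29.0%; background 34.2%) and a median log2 ratio of −0.36 (all transcripts, −0.40). At 3 d, 49 were higher (18.3%; background 19.3%) and 113 lower (42.2%; background 48.3%) of the 268 with reads in both libraries. The median log2 ratio at 3 d was −0.70, with quartiles at −2.29 and 0.59, and that of all transcripts −0.91. From 2 d to 3 d, 23 were higher (8.58%; background 7.78%) and 79 lower (29.5%; background 31.8%). The counts of lower and higher transcripts thus lay near or below those of the whole table.

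The split into higher and lower depended on the scaling. With edgeR's TMM factors the counts at 3 d were 82 higher and 90 lower (47.7% of the calls higher, against 30.2% with CPM), and with DESeq2's median of ratios 89 and 83 (51.7%). These are 30.6% and 33.6% of the set with TMM and 33.2% and 31.0% with the median of ratios. All transcripts moved alike, to 28.9% higher and 35.9% lower with TMM and to 31.2% and 33.7% with the median of ratios. At 2 d they were 63 and 61 with TMM (50.8%, against 38.1%) and 68 and 58 with the median of ratios (54.0%), where 23.6% and 27.0% of all transcripts were higher and lower with TMM and 24.3% and 26.3% with the median of ratios. These scalings moved the median of all transcripts. The shift at 2 d was 0.33 for TMM and 0.36 for the median of ratios, and the shift at 3 d was 0.72 and 0.86. A scaling factor adds the same amount to every log2 ratio of a library. The median of the long noncoding transcripts therefore stayed 0.21 above that of all transcripts at 3 d by construction. Its own sign changed from negative to positive at 3 d with either scaling.

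**Figure D2:**
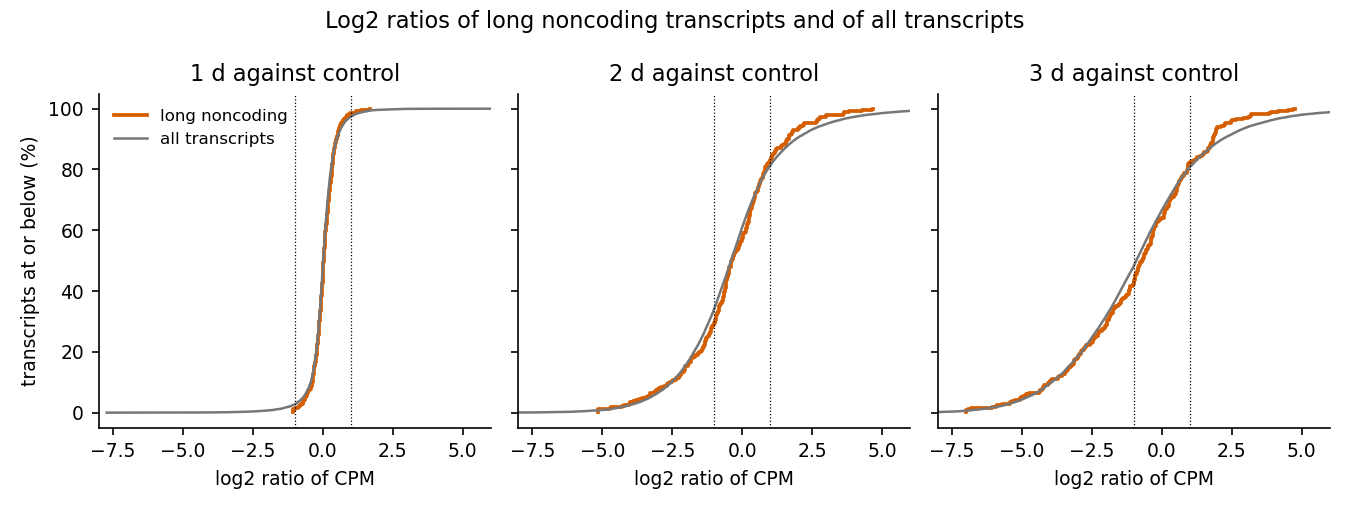
Cumulative share (%) of transcripts at or below each log2 ratio of CPM to the control, at 1, 2 and 3 d, for the long noncoding transcripts (orange, 269, and 268 at 3 d) and all transcripts with at least 100 reads (grey). Dotted lines mark log2 ratios of −1 and 1. The curves lie close together on each day, and at 3 d the medians are −0.70 and −0.91.

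With CPM, more transcripts were far below the control than far above it. The counts that follow were not made with TMM or the median of ratios. At 3 d, 76 transcripts were at least 4-fold lower and 17 at least 4-fold higher, that is 28.4% and 6.34%, where 31.6% and 11% of all transcripts were so. At least 32-fold lower were 13 (4.85%, against 4.33% of all transcripts). The library with the highest CPM was the control for 60 transcripts, 1 d for 95, 2 d for 64 and 3 d for 50 (22.3%, 35.3%, 23.8% and 18.6%, against 26.7%, 33.3%, 19.5% and 20.5% of all transcripts), whereas 134 were lowest at 3 d (49.8%, against 55.9% of all transcripts). The median CPM over the 269 transcripts was 8.0, 8.30, 6.13 and 3.46. Their summed share of mapped reads was 0.466%, 0.483%, 0.484% and 0.486%, and did not follow the median.

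The medians differed with length and with the place in the locus numbering. Of the 97 transcripts over 5000 bases, 14 were higher (14.4%) and 50 lower (51.5%) at 3 d, with a median log2 ratio of −1.14. Of the 171 shorter ones with both values, 35 were higher (20.5%) and 63 lower (36.8%), with a median of −0.38. Of all transcripts with at least 100 reads, 19.3% were higher and 48.3% lower at 3 d, with a median of −0.91. Rice loci were first numbered in steps of 100, and later loci took numbers in between. The transcripts with a number ending in 00 were lower at 3 d in 50 of 82 (61.0%) and higher in 9, with a median of −1.96. Those with a number in between were lower in 63 of 186 (33.9%) and higher in 40 (21.5%), with a median of −0.31. Length and numbering overlapped, since the median length was 5172 bases for the first of these groups and 4148.5 for the second, and their parts were not told apart. With TMM the medians became −0.42 and 0.34 by length and −1.24 and 0.41 by numbering, and with the median of ratios −0.28 and 0.48, and −1.1 and 0.55. Shorter noncoding transcripts, of 3000 bases or less, were higher in 202 (19.4%) and lower in 496 (47.6%) of 1043 at 3 d (median −0.90). Protein-annotated transcripts over 3000 bases were higher in 2647 (16.8%) and lower in 7396 (47.0%) of 15738 (median −0.86). No test was made of these differences.

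Because the libraries were strand-specific but the sources used here do not state whether strand was used in counting, reads from a noncoding transcript and from a gene that overlaps it may have been shared. Each transcript was therefore read beside its neighbour, the protein-annotated transcript with the most reads at the nearest locus within 100 in locus number and with at least 100 reads. Where loci on both sides were equally near, the one with the lower number was taken and the other was not used. For pairs 100 apart the side of the neighbour can therefore rest on this rule. Locus numbers give the order along a chromosome and not the distance in bases or an overlap.

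Among the 8 transcripts with the highest ratios at 3 d (of those with at least 400 reads), Os04g0669375-00 stood first. It had 19 reads in the control, 19 at 1 d, 243 at 2 d and 521 at 3 d, and its log2 ratio at 3 d was 4.77 [4.11, 5.52]. It was almost absent until 1 d and highest at 3 d. Its antisense partner in the study's list, Os04g0669300-01, an EF hand protein of the kind that binds calcium, had 29, 25, 323 and 1013 reads, a log2 ratio of 5.12.

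Os12g0293601-00 had 186 reads in the control, 194 at 1 d, 4856 at 2 d and 4856 at 3 d, with log2 ratios of 4.62 at 2 d and 4.70 [4.49, 4.92] at 3 d. With CPM it reached its 3 d level by 2 d. TMM adds 0.33 at 2 d and 0.72 at 3 d, and the median of ratios 0.36 and 0.86. With either, its 3 d ratio is the higher one. No protein-annotated locus with at least 100 reads lay within 100 of it. Os10g0358100-01, also without such a neighbour, had 80, 61, 2181 and 1135 reads. It was highest at 2 d, with log2 ratios of 4.68 at 2 d and 3.82 [3.49, 4.17] at 3 d.

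Os05g0127450-00 differed from these in its timing, with 52, 94, 190 and 1196 reads. Most of its difference came after 2 d, when its log2 ratio to the 2 d library was 2.74 [2.52, 2.97], the highest among transcripts with at least 400 reads. Its antisense partner Os05g0127400-01, similar to DnaJ proteins, which are partners of Hsp70 chaperones, had 164, 149, 394 and 2437 reads. The log2 ratios at 3 d were 4.52 [4.12, 4.95] and 3.89.

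Os03g0315000-00 had 417, 392, 6275 and 7345 reads (4.13 [3.99, 4.28] at 3 d). Its antisense partner Os03g0314800-01 encodes a neutral invertase, an enzyme that cleaves sucrose, and had 820, 815, 12132 and 14944 reads, a log2 ratio of 4.18. The pair kept nearly the same proportion in every library. Os02g0261150-00 had 564, 557, 4097 and 4246 reads (2.91 [2.78, 3.04] at 3 d), and its antisense partner Os02g0261100-01, the ubiquitin-conjugating enzyme OsUBC5b, which passes ubiquitin on to target proteins, had 1106, 1076, 7569 and 8292 reads (2.90).

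Os07g0105750-00 had 42, 46, 275 and 383 reads (3.18 [2.72, 3.68] at 3 d) beside a kinesin-like gene for a microtubule motor with 24, 23, 136 and 183 reads (2.93). Os11g0490850-01 behaved differently from its neighbour, since it had 56, 42, 167 and 472 reads (3.07 [2.67, 3.50]) while Os11g0490800-01, similar to ABC transporters, which move solutes across membranes with ATP, had 1120, 971, 575 and 296 reads (−1.92).

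**Figure D3:**
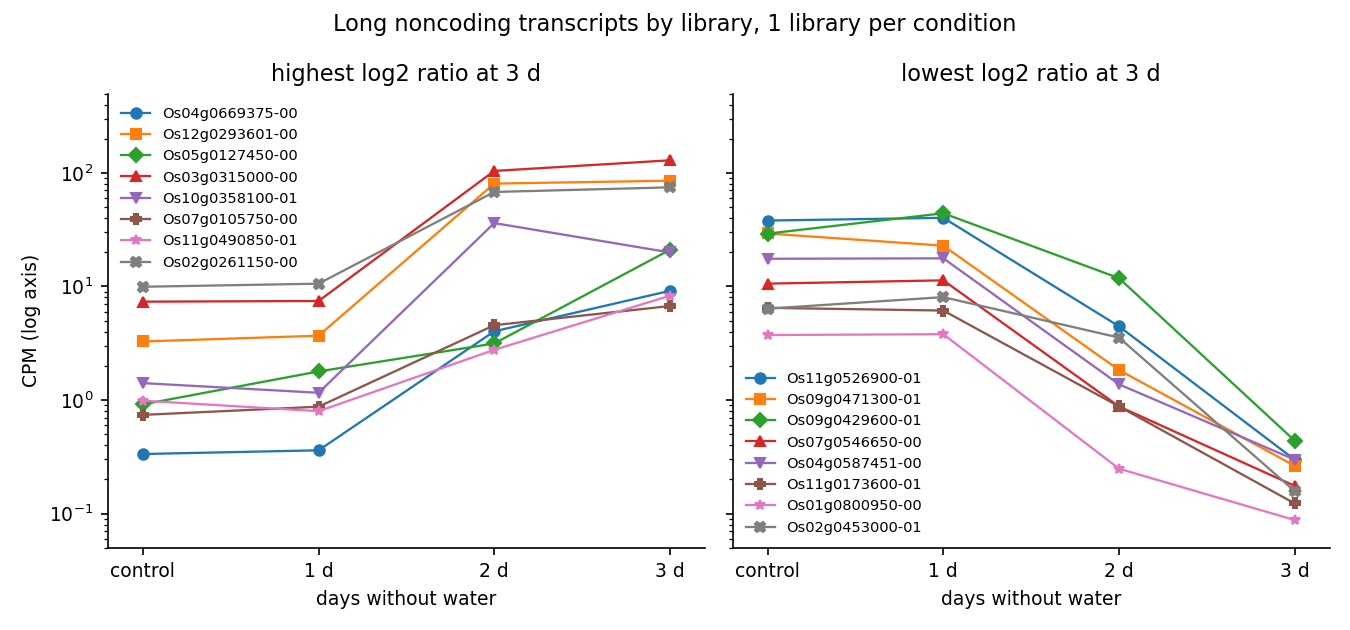
Level in CPM (log axis) in the control, 1 d, 2 d and 3 d libraries, 1 library per condition, for the 8 long noncoding transcripts with the highest (left) and the 8 with the lowest (right) log2 ratio at 3 d among those with at least 400 reads. Lines join the values of a transcript. The ratios at 3 d run from 2.91 to 4.77 on the left and from −6.99 to −5.33 on the right, and at 1 d each of the 16 transcripts lies within a log2 ratio of 1 of its control.

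Among the 8 transcripts with the lowest ratios, Os11g0526900-01, 8242 bases long, had 2158 reads in the control, 2117 at 1 d, 269 at 2 d and 17 at 3 d. It was level until 1 d and nearly gone at 3 d, at a log2 ratio of −6.99 [−7.77, −6.31]. Its neighbour, a conserved hypothetical gene, had 854, 830, 508 and 128 reads, a log2 ratio of −2.74.

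Os09g0471300-01 had 1661, 1203, 111 and 15 reads (−6.80 [−7.64, −6.07] at 3 d). Its antisense partner Os09g0471400-01 is similar to WAK80, a wall-associated receptor-like kinase of the family that links the cell wall to the cytoplasm, and had 1002, 812, 79 and 16 reads (−5.97). Its neighbour by locus number, Os09g0471200-00, annotated in the same way, had 34, 11, 78 and 28 reads (−0.28). Os07g0546650-00 had 601, 596, 53 and 10 reads (−5.91 [−6.98, −5.02]) and its antisense partner Os07g0546600-01, similar to the translation release factor RF-2, which ends protein synthesis at stop codons, had 719, 706, 89 and 16 reads (−5.49). In both antisense pairs the noncoding and the coding transcript were lower together from 2 d on.

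Os09g0429600-01 had 1657, 2321, 714 and 25 reads and was highest at 1 d. Its log2 ratio was 0.59 at 1 d, −1.30 at 2 d and −6.06 [−6.69, −5.49] at 3 d. Os02g0453000-01 had 362, 424, 214 and 9 reads, and stood at −0.85 at 2 d and −5.33 [−6.48, −4.39] at 3 d. For these transcripts, neither of which had a neighbour, most of the difference came between 2 d and 3 d (log2 ratios of −4.75 and −4.49), the lowest values of that comparison among transcripts with at least 400 reads.

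Os04g0587451-00 had 995, 931, 83 and 17 reads (−5.88 [−6.66, −5.19]), while its listed sense partner of unknown function, Os04g0587500-01, had 245, 650, 87 and 16 reads (−3.94) and was highest at 1 d. Os11g0173600-01 had 368, 323, 53 and 7 reads (−5.72 [−7.05, −4.66]) beside a leucine-rich repeat gene at −5.60. Os01g0800950-00 had 212, 200, 15 and 5 reads (−5.41 [−7.05, −4.17]) beside a gene similar to an apurinic endonuclease, an enzyme of DNA repair, at −4.46. With 17 or fewer reads at 3 d, these ratios carry wide intervals.

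Os01g0633800-01, outside the rule for named transcripts and chosen after its values were seen, was the only one of the 269 with a count of 0 in a library, with 89, 148, 20 and 0 reads. Taking 0 as 3 reads, it was at least 29.8-fold lower at 3 d than in the control, a bound that leaves out the counting error of the control. The exact interval of its log2 ratio reaches up to −4.57, which is a weaker bound.

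At 1 d, Os06g0713201-00 had 96, 43, 181 and 332 reads and was lower at 1 d (−1.05 [−1.60, −0.52]) but higher at 3 d (1.79). Os04g0496950-01 showed the same order at far higher counts, with 3045, 1420, 6037 and 8721 reads and log2 ratios of −0.99 [−1.08, −0.90], 0.90 and 1.51. Its neighbour, similar to an allyl alcohol dehydrogenase, had 6664, 3239, 11707 and 13557 reads. Os05g0218663-00, with 471, 242, 545 and 1104 reads, was likewise lowest at 1 d (−0.85 [−1.08, −0.63]) and highest at 3 d (1.22).

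On the upper side at 1 d, Os06g0686050-00, 18116 bases long, had 50, 105, 13 and 16 reads (1.18 [0.68, 1.69] at 1 d) and was lower afterwards. Os11g0136450-00 had 104, 168, 702 and 124 reads (0.80 [0.44, 1.17] at 1 d) and peaked at 2 d. At 3 d it was near its control level with CPM (0.25), but at 0.97 with TMM and 1.11 with the median of ratios. Os02g0211150-00 had 242, 382, 73 and 83 reads (0.77 [0.53, 1.01] at 1 d) and stood at −1.55 at 3 d. Os11g0136450-00 and Os02g0211150-00 did not reach 2-fold at 1 d. Past 2-fold at 1 d were Os06g0713201-00, Os06g0686050-00 (184 reads in all) and others with fewer than 400 reads, picked after their values were seen. Of these others, Os02g0493650-00, Os04g0357200-01, Os07g0618450-00 and Os09g0115950-01 were higher and Os11g0448100-01 lower. For Os04g0357200-01, with 7 and 15 reads, the interval included no change [−0.17, 2.74].

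After Os05g0127450-00, the transcripts with the highest ratios of 3 d to 2 d among those with at least 400 reads were Os03g0106100-01 and Os03g0821325-00. Os03g0106100-01 had 1169, 1394, 200 and 827 reads. Its log2 ratio to the control was −2.64 at 2 d and −0.50 at 3 d (0.22 with TMM and 0.36 with the median of ratios), and from 2 d to 3 d it was higher by 2.13 [1.91, 2.36]. Os03g0821325-00 had 557, 295, 468 and 1709 reads and was higher by 1.95 [1.8, 2.1] from 2 d to 3 d.

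The 4 steadiest transcripts over the drought days varied by 0.06 to 0.11 on the log2 scale with CPM, a choice that rests on this scaling. Os12g0556701-00 had 358, 294, 346 and 313 reads, Os03g0298501-00 had 2273, 1934, 2372 and 2179, Os12g0497994-00 had 1204, 1258, 1554 and 1430, and Os06g0624950-00 had 306, 364, 450 and 412. They were close to their control level with CPM. With TMM and with the median of ratios, Os12g0556701-00 stood at 0.52 and 0.66 at 3 d and Os03g0298501-00 at 0.65 and 0.80. Os12g0497994-00 was then at 0.96 and 1.1, and Os06g0624950-00 at 1.15 and 1.28.

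The longest of all, Os10g0114850-00 (41297 bases), had 1892, 1841, 1716 and 1156 reads and stood at −0.72 [−0.82, −0.61] at 3 d, but at 0.0047 with TMM and 0.15 with the median of ratios. Os09g0124166-00 (27285 bases) had 660, 822, 381 and 180 reads and was at −1.88 [−2.13, −1.64]. Its neighbour, a homeodomain-like gene of the kind that binds DNA, had 152, 101, 24 and 2 reads. Os02g0452550-00 (19140 bases) had 2298, 2103, 3390 and 2127 reads, and followed its neighbour, similar to the SNARE-interacting protein KEULE, known from Arabidopsis for its part in vesicle fusion at cell division, with 2507, 2073, 3641 and 2287 reads. Both were highest at 2 d. At 3 d Os02g0452550-00 stood at −0.12 with CPM, 0.60 with TMM and 0.74 with the median of ratios.

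Os02g0250700-01 (17180 bases) had 4086, 4778, 1776 and 219 reads (−4.23 [−4.43, −4.03] at 3 d). Its listed bidirectional partner Os02g0250600-01 encodes a late embryogenesis abundant protein, of a family known to protect cells as they dry, and had 4, 2, 106 and 42 reads (3.39). Os02g0180800-01 (13244 bases) had 2341, 2706, 2074 and 294 reads (−3.0 [−3.18, −2.82]), while its listed bidirectional partner Os02g0180700-01, similar to cinnamoyl-CoA reductase, which commits phenylpropanoids to lignin, had 1418, 956, 3298 and 2833 reads (0.99). In both pairs the noncoding transcript was lowest at 3 d, when the coding one was above its control level.

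Across the set, 197 of the 269 transcripts had a neighbour. The difference between a transcript and its neighbour, as the absolute difference of their log2 ratios, had a median of 0.16 at 1 d, 0.21 at 2 d and 0.33 at 3 d. At 3 d, 117 of 194 pairs lay within 0.5 (60.3%), and the counting intervals overlapped in 121 pairs (62.4%). The share within 0.5 was 52.0% for shorter noncoding transcripts and their neighbours. It was 28.0% for pairs of protein-annotated loci found by the same rule. With pairs under 100 apart only, it was 65.5% for the long noncoding transcripts and 47.4% for protein-annotated pairs. Of the 36 higher transcripts with a neighbour value, 30 had a higher neighbour, 4 a lower one and 2 neither. Of the 81 lower ones, 69 had a lower neighbour, 4 a higher one and 8 neither. Of all transcripts with at least 100 reads, 19.3% were higher and 48.3% lower at 3 d.

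The closeness went with the locus numbering. Where the numbers were under 100 apart the median difference at 3 d was 0.25 (148 pairs), and where they were 100 apart it was 0.56 (46 pairs). Shorter noncoding transcripts and their neighbours differed by a median of 0.47 (820 pairs). Pairs of protein-annotated loci built in the same way differed by 1.37, and those under 100 apart by 0.58. Per kb of reference, the median ratio of reads, long noncoding over neighbour, was 0.763, 0.780, 0.748 and 0.751 in the 4 libraries. Whether such pairs changed together or shared reads was not tested. The 72 transcripts without a neighbour by this rule were higher in 13 (18.1%) and lower in 30 (41.7%) at 3 d, shares near those of the 196 with a neighbour and both values (18.4% and 42.3%). Some of the 72 may share reads as well, since Os03g0315000-00 and Os04g0162300-00 have a listed antisense partner farther away in number and Os02g0661500-01 and Os03g0337200-03 share a locus with protein-annotated transcripts.

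**Figure D4:**
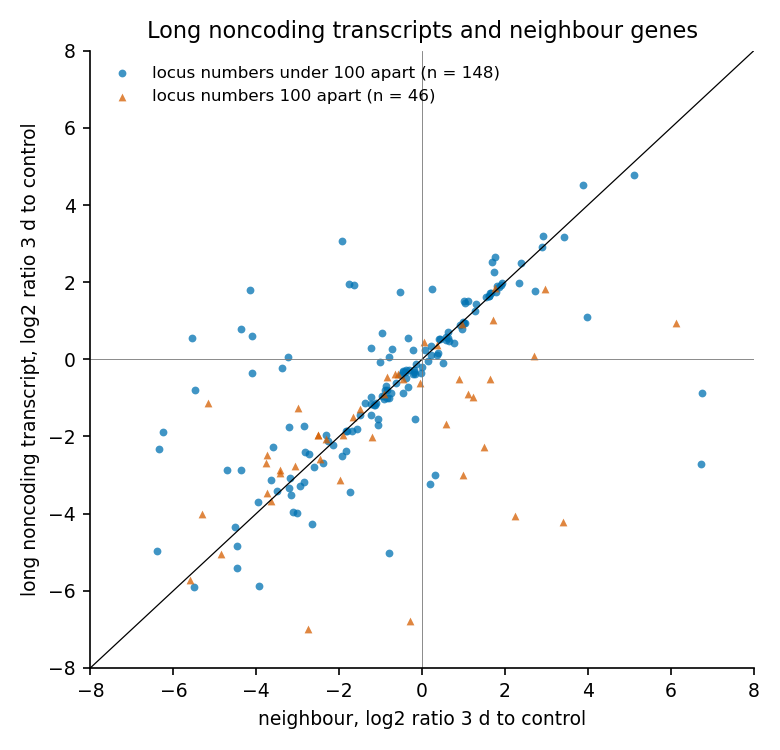
Log2 ratio of CPM at 3 d to the control for each long noncoding transcript (vertical axis) against that of its protein-annotated neighbour (horizontal axis), for 194 pairs. Blue circles are the 148 pairs with locus numbers under 100 apart and orange triangles the 46 pairs 100 apart, and the line marks equal ratios. Of these pairs, 117 lie within 0.5 of the line, and 4 lie at 1 or more against −1 or less in each off-diagonal corner.

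Pairs in opposite directions at 3 d numbered 8 of 194 (4.12%). The share was 5.12% for shorter noncoding transcripts and their neighbours and 10.96% for protein-annotated pairs found by the same rule. With pairs under 100 apart only, it was 3.38% for the long noncoding transcripts and 6.11% for protein-annotated pairs. Higher while the neighbour was lower were Os05g0535566-00, Os06g0713201-00, Os08g0556650-00 and Os11g0490850-01. Os08g0556650-00 had 1163, 1148, 2079 and 4518 reads (1.95 [1.86, 2.05]) where its neighbour Os08g0556600-01 had 899, 861, 629 and 264 (−1.77). Lower while the neighbour was higher were Os01g0670200-01, Os02g0250700-01, Os04g0596500-01 and Os05g0475550-00. Os01g0670200-01 had 318, 272, 232 and 19 reads (−4.07 [−4.82, −3.40]), and its neighbour, a serine/threonine protein kinase gene, had 82, 112, 286 and 387 (2.23). Those of the 8 pairs that fall outside the naming rule were picked by this opposite sign.

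The study listed 37 of these transcripts, 20 of them as antisense to a coding gene. It chose that list on these libraries, so the directions in it are not independent evidence. Of the 20, 6 were higher and 14 lower at 3 d, each with its partner called in the same direction. The log2 ratios of transcript and partner differed by 0.006 to 1.26 at 3 d, with a median of 0.20, and the counting intervals overlapped in 18 of 20 pairs. Os03g0851150-00 had 921, 871, 162 and 91 reads beside 915, 824, 176 and 100 for Os03g0851100-01, similar to the elongation factor EF-TuM, which brings aminoacyl-tRNA to mitochondrial ribosomes. Os01g0654150-00 had 714, 559, 1667 and 4009 reads beside 1108, 879, 2435 and 5787 for a CTP synthase, an enzyme of nucleotide synthesis. Os03g0118500-01 had 1171, 945, 66 and 36 reads beside 1029, 937, 66 and 29 for a gene similar to dihydrodipicolinate reductase, an enzyme of lysine synthesis.

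The study chose its list by changes of at least 4-fold, so large changes in level were set by that choice. The proportion within the antisense pairs is therefore not weighed against the levels. Reads per kb of the noncoding transcript over those of its partner had a median of 0.771 in the control, 0.756 at 1 d, 0.700 at 2 d and 0.687 at 3 d. The ratio lay between 0.5 and 2 in 18, 19, 18 and 17 of the 20 pairs. The exception at the top was Os04g0308000-02, with 1509, 1661, 1254 and 273 reads beside 106, 129, 49 and 8 for Os04g0308100-01, similar to wall-associated kinase 4, a ratio of 1.78 in the control and 4.27 at 3 d. Whether the members of these pairs shared reads was not tested.

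**Figure D5:**
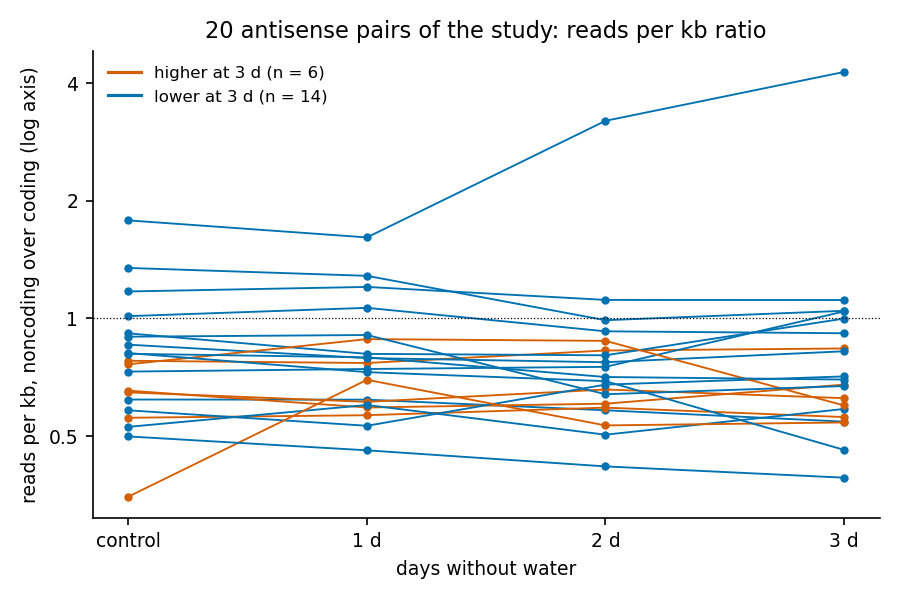
Reads per kb of the noncoding transcript over reads per kb of its coding partner (log axis) in the control, 1 d, 2 d and 3 d libraries for the 20 antisense pairs that the study listed, with 1 line for each pair. Orange lines are the 6 pairs whose noncoding transcript was higher at 3 d and blue lines the 14 where it was lower, and the dotted line marks equal reads per kb. The medians are 0.771, 0.756, 0.700 and 0.687, and the top line ends at 4.27.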

How the data were processed

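Leaf RNA from 4 strand-specific libraries (well-watered control, 1, 2 and 3 d of drought) was sequenced. Per the study's methods, the authors trimmed the reads, removed duplicates with FastUniq and mapped them with clc_ref_assemble to annotated gene sequences of RAP-DB and noncoding RNA sequences of ncrna.org. The build, IRGSP-1.0, is from the submitters' processing notes. The table of gene sequences was used here. The deposited read counts are whole numbers per transcript, not normalized, and the deposited length column (other unit: bases) gives the gene sequence. The 4 columns of normalized values and the 3 columns of the authors' log2 ratios were not used.

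Groups were taken from the sample labels. The count columns are headed by a day number from 0 to 3, and 0, the denominator of the deposited ratios, was read as the well-watered control. Counts were divided by the column sum (CPM), and log2 ratios were formed where both libraries had reads. With 1 library per condition no test was made. Transcripts with a count of 0 in either library have no ratio and are left out of the counts and shares of higher and lower transcripts. At 3 d, 32515 of 32803 transcripts with at least 100 reads had a ratio. Only for the fold bound of Os01g0633800-01 was a count of 0 taken as 3 reads. Backgrounds are all transcripts with at least 100 reads. The depth per library, 52626188 to 60322263 mapped reads, makes counting error small for all but transcripts with few reads, and it leaves plant-to-plant variation unmeasured.

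The transcripts, their rule and the lists were chosen with earlier results of these data known. Named were, among transcripts with at least 400 reads, the 8 highest and 8 lowest at 3 d, the 3 highest and 3 lowest at 1 d, the 3 largest differences each way from 2 d to 3 d, and the 4 with the smallest range over the 3 drought days. The 5 densest and 5 longest transcripts, the pairs that the paper names, the partners and the edge cases were added. Exceptions are marked. Identifiers of the form Os01t in the files are written Os01g. Promoter motifs were not examined, since the reference used here could not be matched to these identifiers, and no sequence is shown for the same reason. Alternatives were no scaling, edgeR's TMM factors, DESeq2's median of ratios, 1 read added, no read minimum, at least 1000 reads, 1 transcript per locus, a counting interval past no change, lengths above 5000 and neighbours within 50. Scripts were tested on simulated data. Software was Python 3.11.15, numpy 2.4.6, pandas 2.3.3, scipy 1.17.1, matplotlib 3.10.9, R 4.3.3, edgeR 4.0.16 and DESeq2 1.42.0.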

Additional observations from a re-analysis of the deposited data

How the results depend on the processing

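With 1 library per condition, leaving out a replicate was not possible. No paired analysis was possible because each condition had 1 library. Scaling moved the centre of the ratios. With TMM the medians were −0.029 (2 d) and 0.020 (3 d), and 82 transcripts were higher at 3 d (30.6%, against 28.9% of all transcripts). With the median of ratios they were 0.0055 and 0.16, and 89 were higher at 3 d (33.2%, against 31.2%). Without scaling 4 were lower at 1 d (1.49%, against 3.52% of all transcripts). Under these scalings Os02g0211150-00 (−0.83 and −0.69 at 3 d) and Os06g0686050-00 (−0.93 and −0.79) were no longer past 2-fold, Os11g0136450-00 passed it with the median of ratios (1.11), and no named transcript that was past 2-fold changed sign. Other filters changed which transcripts were counted. Without a read minimum (319 transcripts) 12 were higher and 7 lower at 1 d. With at least 1000 reads (167 transcripts) the counts at 1 d were 0 and 0 and those at 2 d 30 and 35, with a median of −0.0033. At 3 d, 60 of the 167 were lower. Above 5000 bases (97 transcripts) the counts were 3 and 0 at 1 d, 11 and 33 at 2 d, and 14 and 50 at 3 d. The median at 3 d was −1.14. No share of all transcripts was worked out under these read and length limits, so these counts have no background. The median difference between a transcript and its neighbour at 3 d was 0.22 with neighbours within 50 and 0.18 with at least 1000 reads. Depth limits the ratios of transcripts with few reads at 3 d.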

Other observations

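Transcripts of one locus were counted separately, and 13 of the 269 had another transcript at their locus, of which 11 had a protein-annotated one. At Os05g0163400 the noncoding transcript -02 had 1121, 1181, 3183 and 3963 reads in the control, 1 d, 2 d and 3 d libraries (1.82 [1.72, 1.91] at 3 d). Transcript -01, annotated with a RING/FYVE/PHD-type zinc finger, had 2690, 2636, 12307 and 17351 reads, a log2 ratio of 2.68 [2.63, 2.74]. At Os02g0661500 the noncoding transcript (3479 bases) and a hypothetical protein transcript (3478 bases) had nearly the same counts, 476, 608, 99 and 50 against 490, 583, 94 and 36 reads. At Os05g0415600 the noncoding transcript had 84, 109, 16 and 5 reads and the transcript similar to beta-hexosaminidase, an enzyme that removes sugars from glycans, had 195, 257, 23 and 0. How reads were divided among the transcripts of one locus is not stated in the sources used here.

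A further 5 transcripts that were higher at 3 d are described beside their neighbours. The naming rule does not cover them, they were picked with their values in view, and nothing about shared functions was tested. Os12g0597051-00 had 474, 453, 599 and 1760 reads (1.89 [1.74, 2.04]) beside 1228, 1229, 1426 and 4297 for a gene similar to calcineurin B-like protein 2, a calcium sensor (1.8). Os03g0626900-00 had 730, 658, 3557 and 2652 reads (1.86 [1.74, 1.98]) beside 969, 925, 4589 and 3296 for a calcineurin B gene (1.76). The first pair was high at 3 d only, and the second already at 2 d. Os06g0551450-00 had 689, 664, 2340 and 2148 reads (1.64 [1.51, 1.76]) beside a gene for the Ras-related protein RIC2 (1.61), and Os05g0549050-01 had 520, 466, 1847 and 1720 reads (1.72 [1.58, 1.87]) beside an epsin-like gene of the kind that shapes vesicles (1.66). Os10g0389150-00 had 1415, 1605, 10341 and 3014 reads and peaked at 2 d, while its neighbour, similar to red chlorophyll catabolite reductase, which acts in chlorophyll breakdown, had 41, 57, 335 and 644 reads and was highest at 3 d.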
